A study of Ovis aries with 8 samples.

Results

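The genes described here are those of mitosis and the spindle, 60 genes listed by name, of which 58 had a row in the deposited table of 15380 rows. KIF4A and HMMR matched no row name and are not described. A row named RHAMM was not counted as a member, since no source used here pairs that name with HMMR. The RNA came from pulmonary artery endothelial cells, the lining cells of the lung's arteries, which had been taken from sheep fetuses near term and grown in DMEM with 10% fetal bovine serum. The 4 control cultures carry the treatment label normothermic and the 4 cultures of the intrauterine growth restriction (IUGR) model the label hyperthermic, and each culture, from an animal with its own identifier in the title, was measured on 1 array. Control 1 was at passage 5 and controls 2 to 4 at passage 6, while IUGR 2 was at passage 4 and IUGR 1, 3 and 4 at passage 3. Growth restriction, hyperthermia and passage therefore cannot be told apart between the groups, and cells that have divided in culture are a limited model of the artery lining in the fetus.

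Dividing cells switch the mitotic genes on together in late S and G2 phase and in mitosis, and resting cells keep them low. FOXM1 and the MYB-MuvB complex are the main activators of this wave, and the DREAM complex silences it in resting cells. Cyclin B with CDK1 starts mitosis, kinesins and Aurora kinase A build the spindle, kinetochores tie the chromosomes to it, the spindle checkpoint holds the cell until every chromosome is attached, and the anaphase-promoting complex (APC/C) then destroys cyclin B and securin. The artery lining is largely at rest in the body, and cells in culture with serum divide.

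By their markers the cultures were not equally endothelial. Of 16 endothelial markers measured, 7 in IUGR 2 and 7 in IUGR 4 lay under 3.44 on the log2 scale, and none did on the other 6 arrays. That value, used as a background level, is the 95th percentile of 127 rows of olfactory receptors, genes of the nose. The PECAM1 log2 intensities were 11.11, 11.30, 11.55 and 9.62 in control 1 to 4 and 7.64, 3.31, 9.50 and 3.63 in IUGR 1 to 4. All 16 endothelial markers had a lower IUGR mean, but IUGR 1 and 3 were not low for each. ENG was at 10.52 and 11.20 in IUGR 1 and 3, against 9.88 to 11.31 in the controls. FLT1 was at 6.79 and 6.82 in IUGR 1 and 3, against 5.49 to 7.02 in the controls. PLVAP was highest in IUGR 3. The fibroblast marker LUM was at 2.76 to 2.92 in control 1 to 3, at 11.75 in control 4 and at 11.92 to 12.36 in the IUGR cultures, and the epithelial keratin KRT8 was at 11.67 and 12.22 in IUGR 2 and 4 and at most at 3.79 elsewhere. The IUGR mean was higher for all 14 fibroblast markers measured, but control 1 to 3 were not low for each. COL1A1 was at 9.85, 9.38 and 7.96 in control 1 to 3 against 9.80 in IUGR 4. FBLN1 was at 8.75 in control 1 and lowest in control 4, at 6.57. The IUGR mean was higher for 7 of 8 mesothelial and epithelial markers. The exception, EPCAM, was dim, under the background level on 4 of the 8 arrays. In IUGR 2 it was at 2.56, the floor to which dimmer values were raised, and it was highest in IUGR 3, at 4.75. Array medians were 37.7 to 41.1 intensity units.

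The mitotic genes separated the cultures from one another, not the control group from the IUGR group. They were highest in control 1 and lowest in IUGR 1 and control 4, and the other 5 cultures lay between. As a median over the 58 genes, and taking control 1 as 100%, intensities stood at 42.5%, 51.9% and 20.3% in control 2, 3 and 4 and at 14.9%, 46.8%, 65.8% and 52.0% in IUGR 1, 2, 3 and 4. On the log2 scale, relative to each gene's mean over the 8 arrays, the array medians were 1.24, -0.07, 0.38 and -1.06 in control 1 to 4, and -1.49, 0.15, 0.59 and 0.26 in IUGR 1 to 4. The group means of these array medians were 0.12 ± 0.96 in control and -0.12 ± 0.93 in IUGR cultures (SD, n = 4 each), so their difference of -0.24 was a fraction of the spread within either group. In such bulk RNA, fewer dividing cells and less mitotic RNA per dividing cell cannot be told apart.

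**Figure D1:**
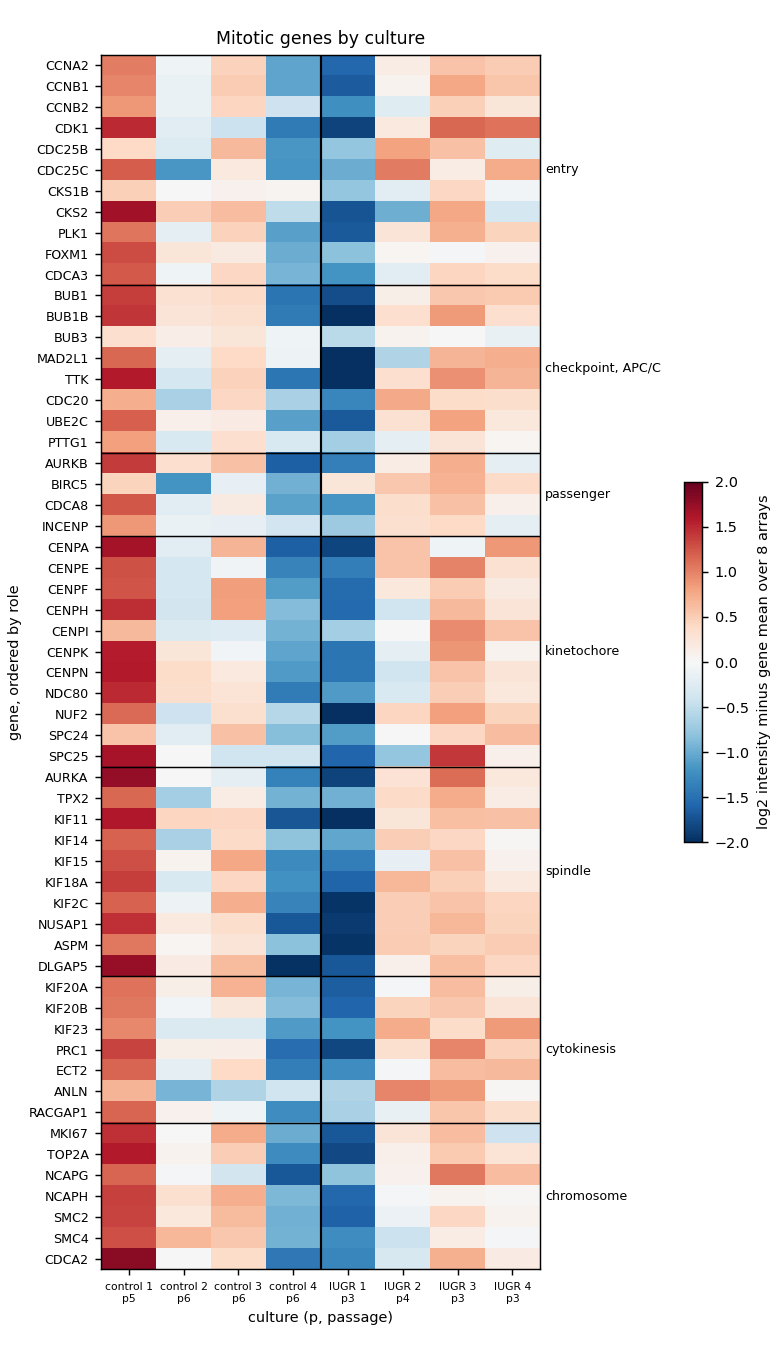
The heat map shows the log2 intensity of each of the 58 mitotic genes (rows, ordered by role) minus the gene's mean over the 8 arrays, in 4 control and 4 IUGR cultures (columns, with passage). Control 1 is the darkest red column, control 4 and IUGR 1 are blue for nearly every gene, and in no row do the 4 control values all lie above or all below the 4 IUGR values.

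The same order ran through most genes. Control 1 held the highest of the 8 values for 52 of the 58 genes, against 15.9% of all rows. IUGR 1 held the lowest for 45, against 12% of all rows, and control 4 for 11, against 12.1% of all rows. The values of IUGR 1 were the lowest of the IUGR group for 58 of 58 genes, against 31.5% of all rows. Control 4 and IUGR 1 were together the 2 lowest of the 8 arrays for 48 genes (82.8%), against 6.98% of all rows. Control 4 was at passage 6, as were control 2 and 3, and IUGR 1 was at passage 3, as were IUGR 3 and 4. Control 1, the highest culture, was the only control at passage 5. Whether passage has a part in the order of the cultures was not tested.

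The genes of mitotic entry come first in the cell's sequence. CCNB1, cyclin B1, had intensities of 526, 243, 383 and 129 in control 1 to 4 and 84.3, 283, 459 and 394 in IUGR 1 to 4. CDK1, the kinase that cyclin B activates, had 188, 57.1, 49.6 and 25.1 in the controls and 18.4, 76.4, 147 and 141 in the IUGR cultures. For both genes the lowest culture was IUGR 1 and the next control 4, and the groups overlapped through most of their range. PLK1, polo-like kinase 1, which drives entry and spindle assembly, had 896, 379, 592 and 200 intensity units in control 1 to 4 and 133, 511, 706 and 586 in IUGR 1 to 4. FOXM1, the transcription factor behind the G2 programme, had 120, 57.1, 55.0 and 24.4 in control 1 to 4 and 27.5, 50.1, 47.8 and 51.5 in IUGR 1 to 4. The FOXM1 values of IUGR 2 to 4 lay close together, while those of the controls were spread 4.93-fold. The cyclin CCNA2, which acts in S phase and early mitosis, had 893.5 units in control 1 and 147 in IUGR 1, the extremes of its 8 values. Its mitotic partner CCNB2, cyclin B2, ran from 50.3 in IUGR 1 to 216 in control 1. CDCA3, which promotes destruction of the CDK1 inhibitor WEE1, ran from 36.1 to 196 between the same cultures. The phosphatase gene CDC25B, which activates CDK1 early, broke this order, with control 4 lowest at 96.9 units and IUGR 2 highest at 381, and with control 3, at 343, above control 1.

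CKS1B and CKS2 encode a pair of closely related small proteins that bind cyclin-dependent kinases, and their values parted. CKS2 had 468, 207, 224 and 103 intensity units in control 1 to 4 and 44.0, 73.8, 250 and 115 in IUGR 1 to 4, the lowest log2 difference of all 58 genes at -1.15 ± 0.65 (SE). CKS1B had 331, 238, 250 and 248 in control 1 to 4 and 140, 205, 316 and 228 in IUGR 1 to 4. Thus CKS2 in control 4 stood far below control 1, whereas CKS1B in control 4 stood level with control 2 and 3. CDC25C, a phosphatase that activates CDK1, was dim. Its intensities were 39.5, 7.64, 19.5 and 7.58 in control 1 to 4 and 8.55, 35.1, 19.0 and 28.6 in IUGR 1 to 4, and 3 of the 8 values lay under the olfactory receptor level.

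The spindle checkpoint and APC/C genes held the widest range of all, once dim values were raised to a floor, and the narrowest. TTK, the MPS1 kinase at the head of the checkpoint, had 199, 51.7, 90.8 and 24.3 intensity units in control 1 to 4 and 14.4, 83.1, 125 and 105 in IUGR 1 to 4, a 13.8-fold range over the 8 cultures. BUB1, a checkpoint kinase at the kinetochore, had 154, 72.9, 76.9 and 21.4 units in the controls and 17.3, 64.0, 85.9 and 84.4 in the IUGR cultures. BUB3, a partner of both BUB1 and BUB1B, had 1025, 892, 952 and 765 in control 1 to 4 and 558, 852, 802 and 736 in IUGR 1 to 4, a range of only 1.84-fold. BUB3 thus kept a nearly even level in cultures in which its partner BUB1 differed 8.90-fold. MAD2L1, the MAD2 protein that restrains CDC20, had 114, 45.5, 67.6 and 47.8 units in control 1 to 4 and 12.3, 34.0, 82.1 and 85.7 in IUGR 1 to 4. CDC20, the activator of the APC/C, had 394, 151, 317 and 151 in control 1 to 4 and 95.5, 399, 304 and 302 in IUGR 1 to 4. IUGR 2 held the highest CDC20 value, and IUGR 1 the lowest. BUB1B, the BUBR1 protein of the checkpoint complex, ran from 15.9 units in IUGR 1 to 189 in control 1, and UBE2C, the ubiquitin enzyme that serves the APC/C, from 65.5 to 477. PTTG1, the securin that the APC/C destroys to free separase, covered only 26.9 to 75.5 units between the same cultures.

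The chromosomal passenger complex, which corrects faulty attachments and then directs cytokinesis, joins Aurora kinase B with INCENP, survivin (BIRC5) and borealin (CDCA8). AURKB had 330, 158, 188 and 40.5 intensity units in control 1 to 4 and 48.4, 139, 207 and 110 in IUGR 1 to 4. BIRC5 went its own way, with 38.5, 12.4, 25.4 and 14.6 units in control 1 to 4 and 33.5, 41.4, 46.2 and 36.9 in IUGR 1 to 4. In IUGR 1, which held the lowest value for 45 of the 58 genes, BIRC5 stood at 87.0% of its control 1 value, the highest share of any member in that culture. The groups overlapped for BIRC5 only through control 1, which lay above IUGR 1 and 4. CDCA8 and the scaffold INCENP kept to the common order at smaller amplitude, from 29.2 and 31.7 units in IUGR 1 to 157 and 96.6 in control 1. Of this complex, therefore, BIRC5 was the member without its lowest value in control 4 or IUGR 1, since its lowest was in control 2.

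Kinetochore genes other than SPC25 had control 4 and IUGR 1 as their 2 lowest cultures. CENPA, the histone that marks the centromere, had 66.9, 17.8, 33.6 and 6.74 intensity units in control 1 to 4 and 4.70, 31.1, 19.8 and 38.1 in IUGR 1 to 4. Its IUGR 1 value lay below the floor of 5.89 units, to which dimmer values were raised, and its control 4 value was under the olfactory receptor level. NDC80, which grips the microtubule, had 151, 68.5, 64.9 and 20.3 units in control 1 to 4 and 24.5, 43.4, 75.1 and 61.6 in IUGR 1 to 4. CENPI, part of the inner kinetochore, had 70.2, 36.9, 37.2 and 23.0 units in control 1 to 4 and 28.0, 44.5, 85.9 and 66.5 in IUGR 1 to 4. IUGR 3 was highest for CENPI, and control 4 lowest. SPC25, a subunit of the NDC80 complex, had 100.2 and 85.8 units in control 1 and IUGR 3 and 10.6 to 34.5 in the other 6 cultures. Its partners in that complex, NUF2 and SPC24, were lowest in IUGR 1, at 20.6 and 23.0 units, and SPC24 was highest in IUGR 4, at 76.7, with control 3 and 1 close to it at 75.0 and 74.1. CENPE, the motor that brings chromosomes to the middle of the spindle, ran from 56.9 to 360 units, and CENPF, a large protein of the outer kinetochore, from 56.2 to 391. The inner kinetochore genes CENPH, CENPN and CENPK were each lowest in IUGR 1, at 22.6, 29.4 and 9.80 units, and highest in control 1, at 184, 242 and 79.4. For each of these 5 genes control 4 was the second lowest of the 8 cultures.

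Spindle motors and assembly factors spanned wide ranges, with a median of 8.45-fold between the highest and lowest culture over 10 genes. KIF11, the Eg5 kinesin that pushes the spindle poles apart, had 479, 212, 210 and 47.9 intensity units in control 1 to 4 and 35.2, 186, 239 and 236 in IUGR 1 to 4. AURKA, Aurora kinase A of the spindle poles, had 317, 94.7, 82.5 and 37.1 units in control 1 to 4 and 26.0, 115, 205 and 109 in IUGR 1 to 4. In both genes the same pair of cultures, control 4 and IUGR 1, stood apart at the low end. KIF15, a kinesin that backs up KIF11, ranged 6.37-fold and TPX2, the activator of AURKA, 4.32-fold. DLGAP5, which steadies spindle fibres, had its lowest value in control 4, at 21.6 units, next to 26.4 in IUGR 1 and 287 in control 1. NUSAP1, a bundler of microtubules, ran from 24.1 to 251 units, KIF2C, a kinesin that takes microtubules apart, from 13.1 to 116, and KIF18A, which limits the length of spindle fibres, from 15.3 to 121, each from IUGR 1 to control 1. ASPM, of the spindle poles, and KIF14 ran from 20.7 to 168 and from 16.9 to 78.8 units between the same cultures.

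Cytokinesis genes had the highest median difference of the 7 role groups, at 0.00. ANLN, anillin of the cleavage furrow, had 480, 158, 199 and 229 intensity units in control 1 to 4 and 200, 591, 540 and 307 in IUGR 1 to 4. It was high in control 1, IUGR 2 and IUGR 3, and control 4 was not its lowest control. KIF20A, a kinesin of the central spindle, had 714, 364, 544 and 176 units in control 1 to 4 and 107, 327, 516 and 365 in IUGR 1 to 4. The related KIF20B ran from 44.8 units in IUGR 1 to 283 in control 1, and PRC1, which bundles the central spindle, from 31.98 to 287. KIF23 and RACGAP1, which together form centralspindlin, both had control 4 and IUGR 1 as their 2 lowest cultures. KIF23 was at 73.6 units in IUGR 1 and 76.8 in control 4, with 303 in IUGR 4 and 326 in control 1. RACGAP1 was lowest in control 4, at 62.4, with 93.4 in IUGR 1 and 329 in control 1. ECT2, the activator of RhoA that centralspindlin recruits, was lowest in control 4, at 34.7 units, and next lowest in IUGR 1, at 38.0.

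Genes of chromosome structure had the lowest median difference, at -0.61 over 7 genes. MKI67, the proliferation marker Ki-67 that coats mitotic chromosomes, had 489, 178, 295 and 88.6 intensity units in control 1 to 4 and 54.4, 212, 273 and 133 in IUGR 1 to 4. TOP2A, the topoisomerase that untangles sister chromatids, had 692, 243, 327 and 96.9 units in control 1 to 4 and 65.7, 247, 332 and 278 in IUGR 1 to 4. Both were highest in control 1 and lowest in IUGR 1. CDCA2, which targets a phosphatase to chromosomes as mitosis ends, ran from 22.4 units in control 4 to 211 in control 1. The condensins, which compact the chromosomes, did not all share this order. SMC4 had 517, 332, 307 and 109 units in control 1 to 4 and 89.0, 156, 234 and 207 in IUGR 1 to 4. NCAPG had 360, 155, 124 and 49.3 in control 1 to 4 and 91.7, 169, 330 and 244 in IUGR 1 to 4. NCAPH had 260, 125, 167 and 54.1 units in control 1 to 4 and 33.9, 97.9, 106 and 102 in IUGR 1 to 4. For SMC4 and NCAPH control 1 to 3 lay above all 4 IUGR cultures, whereas for NCAPG IUGR 2, 3 and 4 lay above control 2 and 3.

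**Figure D2:**
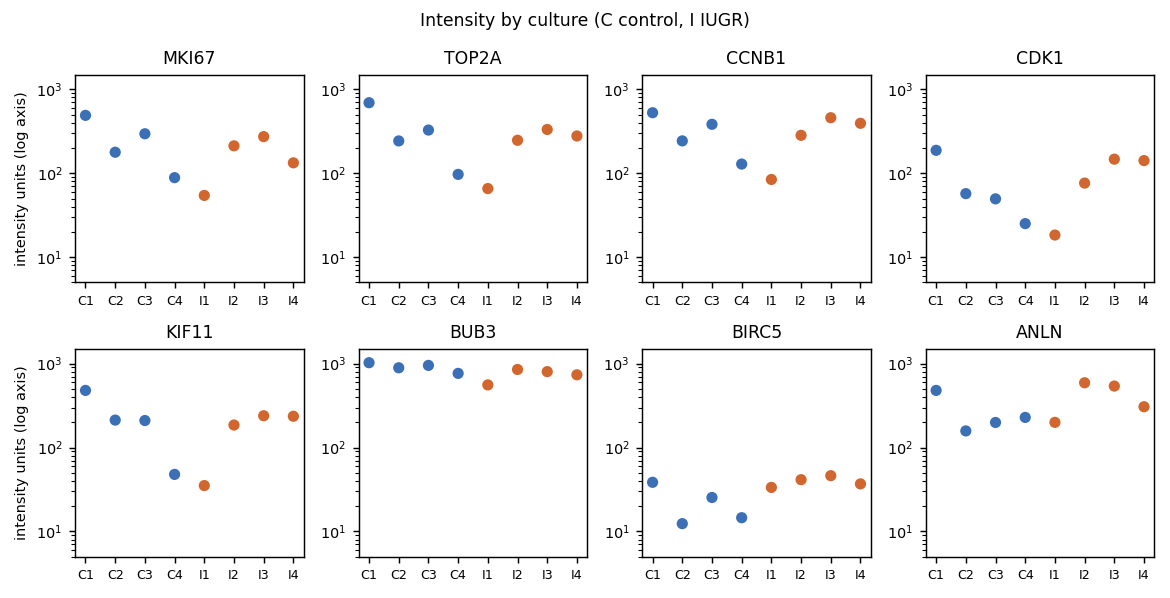
Intensity units (log axis) of 8 mitotic genes in each culture, with control cultures C1 to C4 in blue and IUGR cultures I1 to I4 in orange. MKI67, TOP2A, CCNB1, CDK1 and KIF11 share a low C4 and I1, BUB3 stays between 558 and 1025 units, and BIRC5 and ANLN depart from that order.

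No mitotic gene passed between IUGR and control cultures. The limma test, run over all 15380 rows with Benjamini-Hochberg adjustment, called 0 of the 58 genes and 0 of all rows (0%), with a smallest adjusted p among the genes of 0.300. At an unadjusted p under 0.05, BIRC5 was the 1 gene of 58 (1.72%), in the higher direction, against 15.3% of all rows, 7.80% higher and 7.48% lower. BIRC5 had log2 intensities of 4.36 ± 0.75 in control and 5.29 ± 0.20 in IUGR cultures (SD, n = 4 each), a difference of 0.93 ± 0.37 (SE) with an unadjusted limma p of 0.0389 and an adjusted p of 0.300. The groups overlapped for all 58 genes, whereas 8.36% of all rows had groups that did not overlap. Both shares of the members thus lay below those of the table. The p-values set each difference against the spread between cultures within the groups, which limma moderates over all rows.

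The group means were lower in IUGR for 46 of the 58 genes, against 49.2% of all rows, and the median difference was -0.24 on the log2 scale, against 0.00 over all rows. This direction rested on single cultures. Without control 1 the median became 0.14 and 43 genes had higher IUGR means, and without IUGR 1 it became 0.30 with 41 higher. Without control 4 it became -0.58, with 53 genes lower. After BIRC5, the highest differences were those of ANLN at 0.63 ± 0.48 (SE), and of CDC25C and NCAPG, both at 0.47. Below CKS2, the lowest were SMC4 at -0.77, NCAPH at -0.76, MAD2L1 at -0.63 and SMC2, the other core condensin subunit, at -0.62.

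Precision was limited by the spread within groups. The within-group SD of the 58 genes had a median of 1.00 on the log2 scale, against 0.32 over all rows. The 95% intervals of the differences had a median width of 3.17 and included 0 for 57 genes. For CCNB1 the interval ran from -1.72 to 1.45, so that a 2-fold difference in either direction was not excluded with these cultures. Only for CKS1B, BUB3 and INCENP did the interval stay within a 2-fold difference both ways, for BUB3 from -0.68 to 0.06. Of the variance of each gene over the 8 arrays, a median of 2.74% lay between the group means, against 14.6% over all rows.

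**Figure D3:**
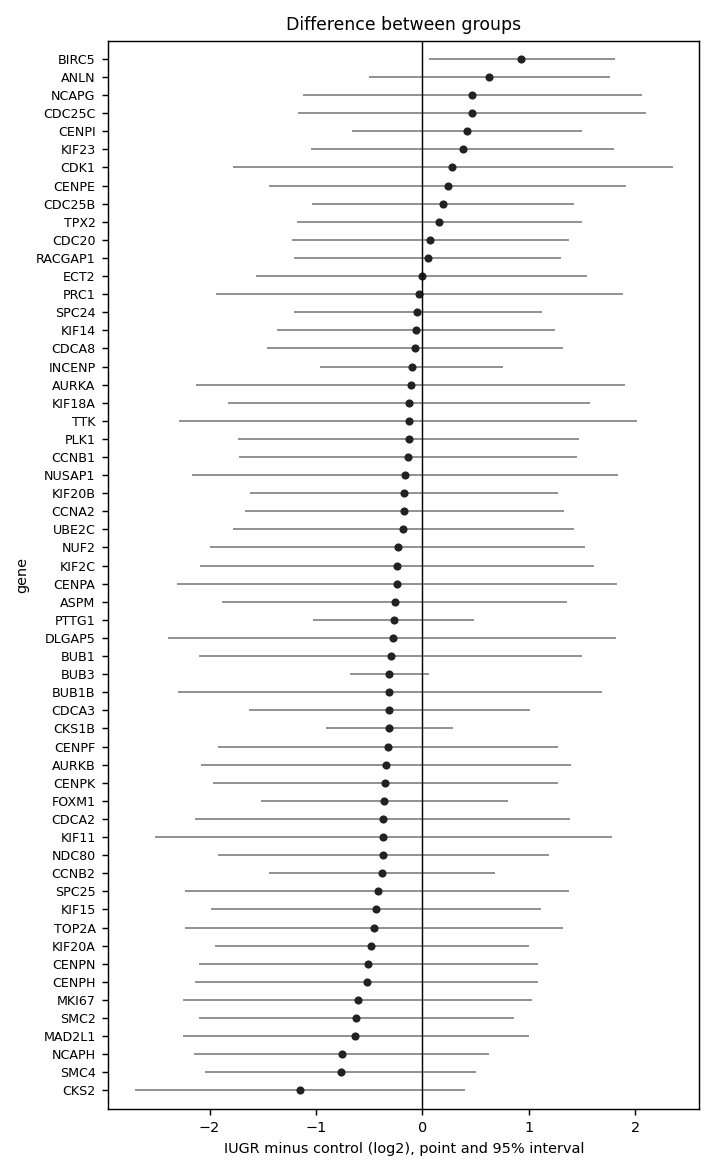
Difference between IUGR and control cultures (log2, points) with its 95% interval from limma (lines) for each of the 58 mitotic genes, 4 cultures a group. The interval of BIRC5, at 0.06 to 1.81, is the only one that leaves out 0, and those of BUB3, CKS1B and INCENP are the only ones within 1 log2 unit of 0 on both sides.

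The genes moved together across cultures. Over the 1653 pairs of members, Pearson's r across the 8 arrays had a median of 0.88 (range -0.09 to 1.00), and 0.91 (0.46 to 1.00) when taken over deviations from the group means. These points share 8 arrays and are a description. Set against the median of the other 57 members, TOP2A, PLK1, TTK, BUB1B and CCNA2 were closest, each with r = 0.99. BIRC5 (r = 0.40) and ANLN (r = 0.57) were least alike, followed by CDC25C (0.78), CDC25B and CKS1B (both 0.79).

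Members also differed in how steeply they followed the common level. For each log2 unit of the other members' median, TTK changed by 1.43, KIF11 by 1.42 and DLGAP5, a spindle protein, by 1.39. The slopes of BUB3 and CKS1B were 0.25 and 0.34, with r of 0.81 and 0.79. Both were highest in control 1 and lowest in IUGR 1, but control 4 was not among the 2 lowest cultures for either. Securin (PTTG1) and INCENP lay between, at 0.47 and 0.50. Over the 58 genes the range from the highest to the lowest culture had a median of 7.13-fold, against 1.98-fold over all rows, and 84.5% of the genes exceeded 4-fold, against 16.6% of all rows.

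**Figure D4:**
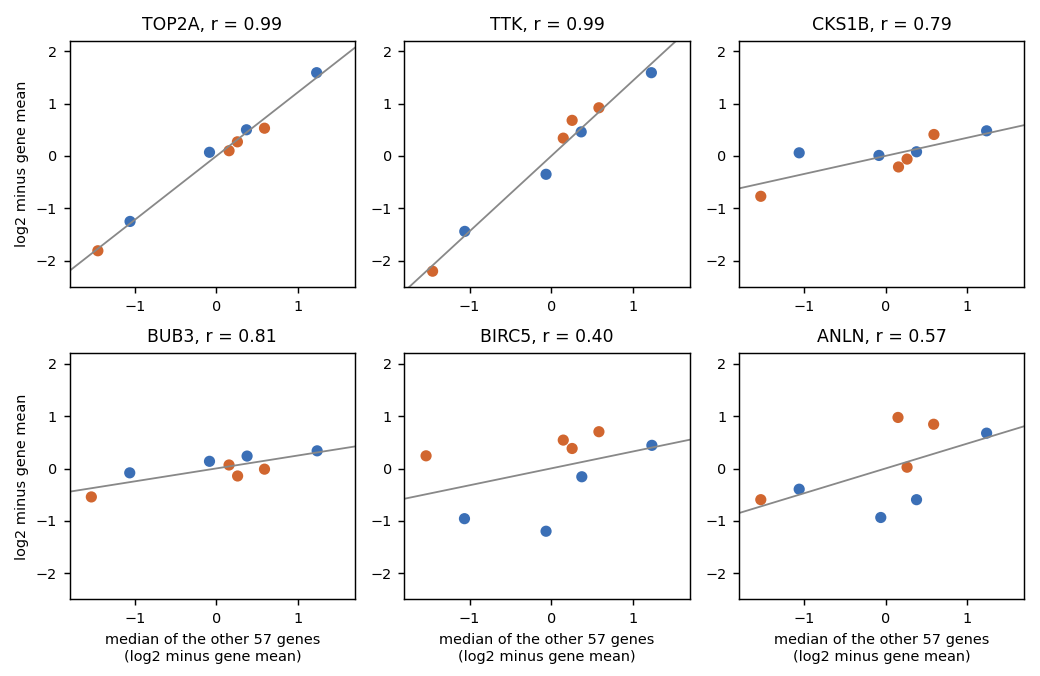
For 6 genes, the log2 intensity minus the gene's mean (vertical axis) is plotted against the median of the other 57 mitotic genes (horizontal axis), with control cultures in blue, IUGR cultures in orange and a least-squares line. TOP2A and TTK follow the line closely with slopes of 1.22 and 1.43, BUB3 and CKS1B have slopes of 0.25 and 0.34, and the BIRC5 and ANLN points scatter.

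Other cell cycle genes showed how far this order reached. DNA replication genes followed it, with array medians of 1.13, 0.05, 0.20 and -0.75 in control 1 to 4 and -1.07, -0.19, 0.47 and 0.17 in IUGR 1 to 4 over 40 genes. Of these, 33 (82.5%) had r over 0.8 with the mitotic level, against 3.32% of all rows outside the members. None passed between the groups, and the 4 with the smallest p were GINS2, CDT1 and RFC5, at -0.53, -0.40 and -0.45, and CDC7, a replication kinase, at 0.55. Of 92 further mitosis genes 0 passed over all rows, and their median difference was -0.17. Before adjustment (p under 0.05) 3 of the 92 were lower and none higher in IUGR, against 7.48% lower and 7.80% higher of all rows, so the share lay below that of the table. LIN52 and LIN37, subunits shared by the MuvB complexes, differed by -0.53 each, NUMA1, a spindle pole protein, by -0.70 and BORA, an activator of AURKA, by 0.75. LIN52, LIN37 and NUMA1 were the lower ones before adjustment, and the groups did not overlap for LIN52.

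Core APC/C and cohesin genes varied less than the mitotic genes, though not less than the rows of the whole table. Both sets were grouped after their values were seen. Over 12 core APC/C subunits the range between cultures had a median of 2.15-fold, and over 7 cohesin genes 2.83-fold, against 1.98-fold over all rows. None of either set exceeded 4-fold, against 16.6% of all rows. Cohesin genes still followed the mitotic level, with r from 0.59 for STAG2 to 0.96 for SMC1A, and APC/C subunits had r from -0.42 for ANAPC11 to 0.89 for CDC23. Of the 18 G1 control genes measured, 6 had r over 0.8 with the mitotic level and 0 passed between the groups. At an unadjusted p under 0.05, 2 of the 18 were lower and none higher, against 7.48% lower and 15.3% in either direction of all rows. These were the CDK inhibitor gene CDKN1B, at -0.71, and RBL2, the p130 pocket protein of the DREAM complex, at -0.40. CDKN2C, another CDK inhibitor gene, differed by -0.98 with overlapping groups. CDKN1A, the p21 inhibitor, had 156, 198, 197 and 369 intensity units in control 1 to 4 and 508.5, 301, 410.5 and 217 in IUGR 1 to 4. It was highest in IUGR 1 and lowest in control 1, the reverse of the mitotic genes at both ends, with r = -0.71 over the 8 arrays. The other CDKN genes of the list did not share 1 sign. Their r was 0.40 for CDKN1B, 0.72 for CDKN2C, 0.29 for CDKN2D and 0.89 for CDKN3, but -0.43 for CDKN2B.

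Markers of other cells took a different order. Control 4 and IUGR 1, the cultures with the lowest mitotic level, had summed fibroblast marker intensities of 18465 and 26850, and the IUGR cultures with higher mitotic levels had 22828, 16235 and 13289 in IUGR 2, 3 and 4, against 1679 to 2406 in control 1 to 3. All 14 measured fibroblast markers were above the olfactory receptor level in control 4 and in every IUGR culture. Summed intensities of 9 smooth muscle markers were 19921 in control 4 and 11317 in IUGR 1 and 1153 to 10045 elsewhere. The single markers did not share 1 order. Control 4 and IUGR 1 were the 2 highest cultures for ACTA2, MYH11, LMOD1, SYNPO2 and ACTG2, but not for TAGLN, CNN1, DES and MYOCD. ACTA2, smooth muscle actin, was at 13.09 and 12.12 on the log2 scale in control 4 and IUGR 1 and at 6.46 to 11.80 elsewhere. MYH11, smooth muscle myosin, was at 9.21 and 7.51 on the log2 scale in control 4 and IUGR 1 and at most at 5.15 in the other cultures. TAGLN, an actin-binding protein, was at 11.70 in control 4, but at 11.64 and 11.42 in IUGR 2 and 3 against 11.33 in IUGR 1. The intermediate filament gene DES was highest in IUGR 2, at 8.93, against 5.28 in control 4 and 7.24 in IUGR 1. Across the 8 arrays, r with the mitotic level had a median of -0.58 over the smooth muscle markers, -0.49 over the fibroblast markers and 0.13 over the endothelial markers. IUGR 2 and 4, with summed mesothelial and epithelial marker intensities of 8901 and 13639 against 129 to 184 elsewhere, had mitotic levels between those of IUGR 1 and IUGR 3. The 8 leukocyte markers summed to 249 to 1474 intensity units, and 3 to 6 of the 8 were above the olfactory receptor level on each array. PTPRC, which defines leukocytes, was under that level on all 8 arrays, whereas the macrophage markers CD14 and CD68 were above it on all 8, at 52.9 to 259 and 63.5 to 164 units. LAPTM5, another of the list, ran from 9.80 units in IUGR 2 to 1087 in control 2. The part of these cell types in the mitotic level was not tested.

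**Figure D5:**
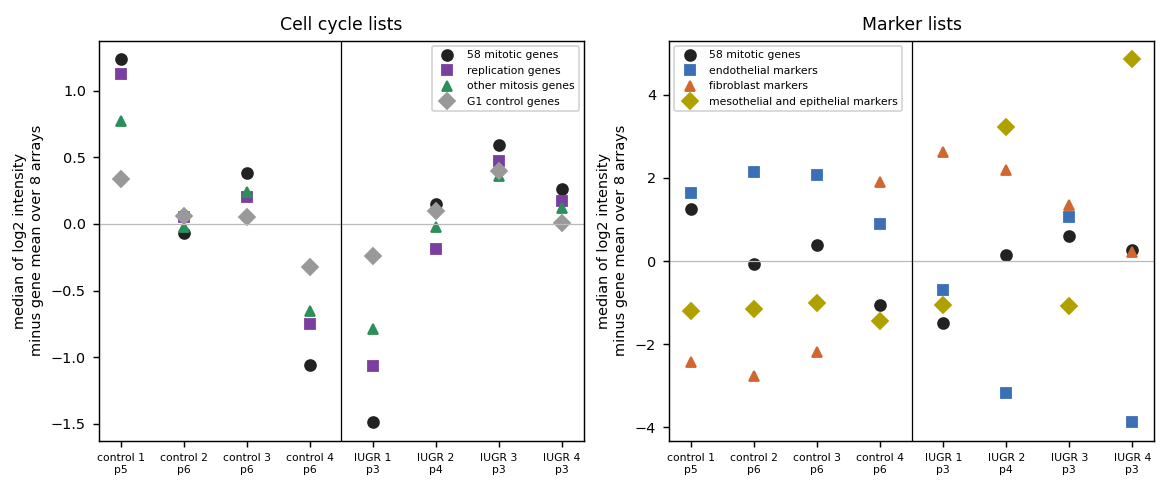
Median over each gene list of the log2 intensity minus the gene's mean over the 8 arrays (vertical axis), by culture with passage (horizontal axis), for cell cycle lists on the left and marker lists on the right. The replication and further mitosis genes follow the mitotic genes from control 1 down to IUGR 1, whereas endothelial and fibroblast markers take other orders.

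Differences between groups at an equal level of DNA replication genes were then fitted, with the array median of the 40 replication genes as a covariate, a setting chosen after seeing the data. No mitotic gene and no row passed in limma (0% of all rows, smallest adjusted p among the members 0.128). At an unadjusted p under 0.05 there were 9 members, 15.5% of the 58 against 15.7% of all rows, so the share lay near that of the table. Of these, 7 had higher and 2 lower values in IUGR cultures, against 8.07% higher and 7.59% lower of all rows. The higher were BIRC5 at 1.11, NCAPG at 0.89, CDK1 at 0.83, KIF23 at 0.73, CENPI at 0.71, CENPE at 0.68, and ECT2 at 0.41. CKS2 at -0.74 and SMC4 at -0.45 were the 2 lower. The standard errors shrank in this fit, from 0.87 to 0.23 for CDK1 and from 0.45 to 0.09 for CENPI. The median difference of the members moved from -0.24 to 0.21.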

How the data were processed

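Biotinylated cRNA was hybridised to 1-colour arrays after an Affymetrix protocol and total RNA had been extracted with Trizol, per the labels. The deposited values, 1 row per gene name or number, were taken as linear intensity from their distribution (all positive, with a long upper tail); the sources used here do not give their scale or the authors' background correction, probe summary or normalisation. Every log2 and fold value rests on this reading. Array medians nearly coincide, so nothing was rescaled. Groups came from the treatment label and passage from the titles. Members were found by exact row name. Values under the 10th percentile (5.89 units, 2.56 as log2) were raised to it before log2, so differences of dim genes are understated. IUGR was compared with control by limma 3.58.1 in R 4.3.3 (lmFit, eBayes, two-sided) over all 15380 rows with Benjamini-Hochberg adjustment at 0.05; the script was tested on simulated data. Array medians, correlations and ranges were computed in Python 3.11.15 and carry no p. Intensities of different rows are not set against each other, since probes differ. The summed marker intensities do add rows, so the brightest rows weigh most in them. The table holds no detection calls, and 4 arrays a group limit the precision.

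The members and all gene lists were chosen with earlier results of these data known. Genes named were a fixed set of 14 (MKI67, TOP2A, CCNB1, CDK1, PLK1, AURKA, AURKB, BIRC5, BUB1, CDC20, NDC80, CENPA, KIF11 and FOXM1), the 2 smallest p-values per role, the 5 highest and 5 lowest differences and mean levels, and members at an unadjusted p under 0.05. Lists of further mitosis, replication and G1 genes gave 4 each by p, and the marker lists their first 3 measured genes. Genes named beyond this were chosen after their values were seen. Alternatives covered scaling, floor, filter, prior, array weights, passage, title number and left-out arrays.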

Additional observations from a re-analysis of the deposited data

Results flagged for a closer look

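In 10 of 116 tests, of each gene in each group of 4 cultures, 1 culture lay farther from its nearest neighbour than Dixon's 95% critical value allows; chance flags about 1 in 20 groups. In 9 of these 10 the culture was IUGR 1, at the low end. Its log2 intensities were 4.78 for FOXM1, 5.81 for CENPF, 4.37 for NUF2, 5.14 for KIF11, 3.71 for KIF2C, 4.59 for NUSAP1, 4.37 for ASPM, 5.49 for KIF20B and 5.08 for NCAPH. The gap was widest for ASPM, whose other IUGR cultures had 110 to 114 intensity units against 20.7 in IUGR 1. The remaining one was control 1 at the high end for CKS1B, at 8.37. These genes move together across the cultures, so the 9 are not separate observations.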

How the results depend on the processing

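No mitotic gene passed over all rows in any of the 22 alternative settings, though rows of the whole table passed in some. These were 340 of 15380 without control 4 and 304 without control 4, IUGR 2 and IUGR 4. There were 61 with log2 of the value plus 1, 55 of 7690 with rows above the median, and at most 20 in any other setting. At an unadjusted p under 0.05 the count of mitotic genes was 2 after median centring and 9 with the replication level as a covariate. It was 0 with rows above the median, array weights, passage as a covariate, and without both IUGR 2 and 4. It was also 0 without these and control 4, where the groups of 4 genes did not overlap (33.2% of all rows). The filter on rows above the median kept 52 of the 58 genes and left out BIRC5, so the 0 there does not bear on BIRC5. Of all rows, 8.48% to 18.5% were at an unadjusted p under 0.05 over the settings. Leaving out single arrays gave 0 to 2 genes at that p (11.5% to 17.7% of all rows), 0 to 4 genes whose groups did not overlap (10.4% to 17.1% of all rows), and medians from -0.58 to 0.30. With passage as a covariate the median difference was -1.61; control 1 and IUGR 2 are the only cultures whose passage differs from the rest of their group. The cause of these moves was not tested. Over the 58 genes, the number with a higher IUGR mean moved from 12 to 2 with passage and to 43 with the replication level. Among the genes named by rule, signs of uncalled differences turned as follows. With passage as a covariate: CDK1 -2.35, BIRC5 -0.45, CDC20 -0.02, CENPI -1.38, NCAPG -2.14 and CDC25C -0.59. Without IUGR 2 and 4: CDK1 -0.22, CDC20 -0.44 and CDC25C -0.19. Without these and control 4: CDK1 -0.64, CDC20 -0.65, NCAPG -0.13 and CDC25C -0.51. With the replication level: TOP2A 0.02, CCNB1 0.27, PLK1 0.29, AURKA 0.42, AURKB 0.10, BUB1 0.17, NDC80 0.04, CENPA 0.26, KIF11 0.19, CCNA2 0.22, CENPK 0.08 and SPC25 0.01. Leaving out single arrays gave ranges through 0 of -0.51 to 0.40 for CCNB1, -0.52 to 0.41 for PLK1, -0.58 to 0.49 for AURKA, -0.94 to 0.07 for AURKB, -0.84 to 0.24 for BUB1, -0.89 to 0.07 for NDC80, -0.83 to 0.33 for CENPA, -1.0 to 0.29 for KIF11, -0.75 to 0.01 for FOXM1, -0.55 to 0.32 for CCNA2, -0.76 to 0.11 for CENPK, -0.97 to 0.05 for SPC25, -0.17 to 0.52 for CDC20, -0.14 to 0.95 for CDK1, -0.02 to 0.93 for NCAPG and -0.95 to 0.07 for TOP2A. No paired analysis was possible because the labels give no shared replicate numbers. Dim values limit CENPA, CDC25C, CENPK and SPC25, each under the olfactory receptor level on at least 1 array.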

Other observations

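One kinetochore gene, picked out after its values were seen, ran against the others. CENPM, of the inner kinetochore, had 60.5, 80.8, 75.4 and 88.2 intensity units in control 1 to 4 and 96.8, 73.0, 60.3 and 68.4 in IUGR 1 to 4, highest in IUGR 1 and control 4. Its r with the mitotic level was -0.94 over the 8 arrays, over a range of 1.60-fold. CASC5, the scaffold of the outer kinetochore, had 144 units in control 1 and 9.80 in IUGR 1, with r = 0.99.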
